A study of Mus musculus with 20 samples.

Results

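Cells limit damage by oxidants through a set of 42 antioxidant, glutathione and NRF2 target genes, which were picked by gene name and are described here in natural killer (NK) cells of mouse spleen. Of these 42 genes, 41 were measured, among 17481 genes in all. The exception was Me1, the cytosolic malic enzyme, whose probes were not well above background on any array. The mice were male C57BL/6 animals in 4 groups of 5, each mouse giving 1 single-colour array. By gavage, once a day for 14 days, they received both compounds (ptaquiloside at 5.3 mg/kg and selenium at 1.3 mg/kg), selenium alone at 1.3 mg/kg, ptaquiloside alone at 5.3 mg/kg, or water as control. Ptaquiloside is the main toxin of bracken fern, an alkylating glucoside. Selenium is the trace element that selenoproteins such as glutathione peroxidases and thioredoxin reductases carry. The NK cells stayed untouched: the rest of the spleen was held back on magnetic columns, and any cell that was not held back adds its RNA.

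The transcription factor NRF2, encoded by Nfe2l2, is held by KEAP1, which marks it for degradation. Oxidants and electrophiles modify KEAP1, NRF2 then accumulates, pairs with a small Maf protein and binds antioxidant response elements. Its targets make glutathione (Gclc, Gclm, Slc7a11), reduce peroxides (Prdx1) and repair over-oxidised peroxiredoxins (Srxn1). Others degrade haem and store the freed iron (Hmox1, Ftl1, Fth1) and supply NADPH (G6pdx, Pgd, Taldo1, Tkt). Glutathione transferases and the epoxide hydrolase Ephx1 dispose of reactive metabolites.

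The promoters of 3 NRF2 targets are shown because their printed stretches hold a match to the antioxidant response element core (Prdx1, Gclm) or to the related AP-1 site (Srxn1, Prdx1). RefSeq sequences (build GRCm38.p6) of 250 bases before the start site were available, with the 50 bases after it, for 36 of the 42 genes. The core of the antioxidant response element, TGACNNNGC, and the AP-1 site TGAGTCA, bound by Fos and Jun proteins, were searched on both strands. The 2 motifs can overlap, as TGACTCAGC holds both. The core was found in 10 of 36 members (27.8%), against 14.0% of all 27025 genes. The AP-1 site was found in 7 of 36 members (19.4%), against 5.95% of all genes. Capitals mark the matches, and the 250 bases run 5′ to 3′ up to the start site. Srxn1 (chr2:152105274-152105523, plus strand) has AP-1 sites starting 102 and 45 bases before the start site. Prdx1 (chr4:116685349-116685598, plus strand) has an AP-1 site starting 237 bases before it. At 133 bases before it, Prdx1 has a core overlapping an AP-1 site, read from the other strand. Gclm (chr3:122245307-122245556, plus strand) has a core on the other strand starting 134 bases before it. A match is a run of letters, not a measured binding site. The core of Srxn1 lies after its start site and is not in the printed stretch.
Srxn1: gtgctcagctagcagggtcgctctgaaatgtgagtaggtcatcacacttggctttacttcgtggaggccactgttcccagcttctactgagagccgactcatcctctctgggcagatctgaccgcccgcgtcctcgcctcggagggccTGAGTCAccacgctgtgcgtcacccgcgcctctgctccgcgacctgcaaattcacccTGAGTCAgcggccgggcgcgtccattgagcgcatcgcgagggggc
Prdx1: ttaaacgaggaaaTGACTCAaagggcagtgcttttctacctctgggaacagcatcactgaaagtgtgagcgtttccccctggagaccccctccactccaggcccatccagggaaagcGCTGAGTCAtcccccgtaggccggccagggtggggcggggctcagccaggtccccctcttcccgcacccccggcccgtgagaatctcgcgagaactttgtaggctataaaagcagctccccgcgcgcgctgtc
Gclm: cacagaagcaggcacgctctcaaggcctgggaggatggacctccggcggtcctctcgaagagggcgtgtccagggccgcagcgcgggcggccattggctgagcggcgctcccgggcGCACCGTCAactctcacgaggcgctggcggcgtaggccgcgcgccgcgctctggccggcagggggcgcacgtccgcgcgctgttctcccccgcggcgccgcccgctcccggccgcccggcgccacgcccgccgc

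Levels are log2 processed signals minus the 75th percentile of the same array, and are compared within a gene, since probes differ in brightness. The array of ptaquiloside mouse 4 was dim. Its 75th percentile was 10.5 scanner units, against 45.5 to 133 on the other 19, and 36.3% of its spots were well above background, against 51.7% to 60.8%. Across genes it correlated with the others at 0.454 to 0.661, while the others correlated among themselves at 0.899 to 0.991. Results are therefore given on all 20 arrays and on 19 arrays without it, with the slide as a block in the 19-array fit. The second dimmest array, of mouse 5 given both compounds, had a 75th percentile of 45.5. Mice that share a number were hybridised on 1 of 5 slides, each group at a fixed place on it, so the place on the slide cannot be told apart from the treatment. All 10 NK cell markers listed were measured, 9 of them well above background on all 20 arrays. Markers of other cells were measured too, with 9 of 13 macrophage and monocyte markers, 6 of 9 neutrophil markers and 4 of 8 B cell markers well above background on all 20 arrays. In such RNA, fewer cells of a type and less RNA per cell cannot be told apart.

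Most of the system was detected in the control NK cell isolates. There the summed marker level ran from 7.88 to 8.89 for NK cells, 8.87 to 9.34 for macrophages and monocytes and 7.75 to 8.81 for neutrophils. It ran from 8.20 to 8.40 for dendritic cells, while the B cell, T cell, erythroid and platelet lists did not exceed 5.43. The lists differ in length and probe brightness, and which cells gave each member's RNA was not tested. Of the 41 members, 30 were well above background on all 20 arrays and 8 on 18 or 19. The other 3 were measured on few: the cytosolic isocitrate dehydrogenase Idh1 on 8 arrays, Gstt1 on 7 and Gsta4 on 5. Controls made up 4 of the 8 arrays of Idh1 and 3 of the 5 of Gsta4, so both reached the required 5 arrays only through control. Lower values of these genes against control carry no support, also where they enter counts of lower members. For 32 members the control mean lay above the array's 75th percentile. Means over the 5 control mice follow by role, each with its SD. The regulators stood at 4.57 ± 0.60 (Nfe2l2) and 2.13 ± 0.24 (Keap1). The haem and iron genes stood at 2.74 ± 0.85 for Hmox1, which opens the haem ring, and at 5.85 ± 0.16 (Ftl1) and 9.20 ± 0.09 (Fth1) for the ferritin chains. Hmox1 thus had by far the wider spread between control mice of these 3.

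In glutathione synthesis and recycling, the catalytic subunit of the limiting ligase, Gclc, stood at 1.88 ± 0.15 and its modifier Gclm at -1.84 ± 0.57. The synthetase Gss stood at 0.49 ± 0.19, the reductase Gsr at 3.22 ± 0.21 and the cystine importer Slc7a11 at 0.72 ± 0.51. Control levels of the NADPH genes were 2.76 ± 0.31 (G6pdx), 2.74 ± 0.13 (Pgd), 6.82 ± 0.17 (Taldo1), 5.79 ± 0.22 (Tkt) and -3.81 ± 0.34 (Idh1). G6pdx and Pgd make NADPH directly, and Taldo1 and Tkt return pentose phosphates to the pathway. The thioredoxin system had 3.97 ± 0.31 (Txn1), 2.86 ± 0.32 (Txn2), 4.26 ± 0.20 (Txnip, which binds thioredoxin), 1.22 ± 0.16 (the glutaredoxin Glrx) and 2.86 ± 0.29 (Srxn1). Sulfiredoxin, the product of Srxn1, repairs peroxiredoxins that peroxide has over-oxidised.

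The peroxiredoxins, which reduce peroxides, stood at 3.43 ± 0.17 (Prdx1), 3.86 ± 0.39 (Prdx2), 1.51 ± 0.36 (Prdx3), 1.63 ± 0.43 (Prdx4), 3.38 ± 0.15 (Prdx5) and 5.17 ± 0.30 (Prdx6). The superoxide dismutases stood at 6.82 ± 0.26 (Sod1, cytosolic) and 5.94 ± 0.27 (Sod2, mitochondrial), and catalase, Cat, at 0.39 ± 0.21. Among the transferases and conjugating enzymes, control means ran from -5.30 ± 0.45 (Gsta4) to 4.47 ± 0.33 (Gstm1). Between them were Gstt1 (-4.41 ± 0.57), Mgst3 (-2.00 ± 0.39), Gstm5 (-0.52 ± 0.84), Ephx1 (-0.15 ± 0.27), Gstk1 (-0.09 ± 0.34) and Gstt2 (-0.03 ± 0.36). Higher up were Mgst2 (1.69 ± 0.45), Mgst1 (2.24 ± 0.22), Gsto1 (3.64 ± 0.34) and Gstp1 (4.26 ± 0.31). All these enzymes attach glutathione or open epoxides, and the microsomal Mgst proteins also reduce lipid peroxides.

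**Figure D1:**
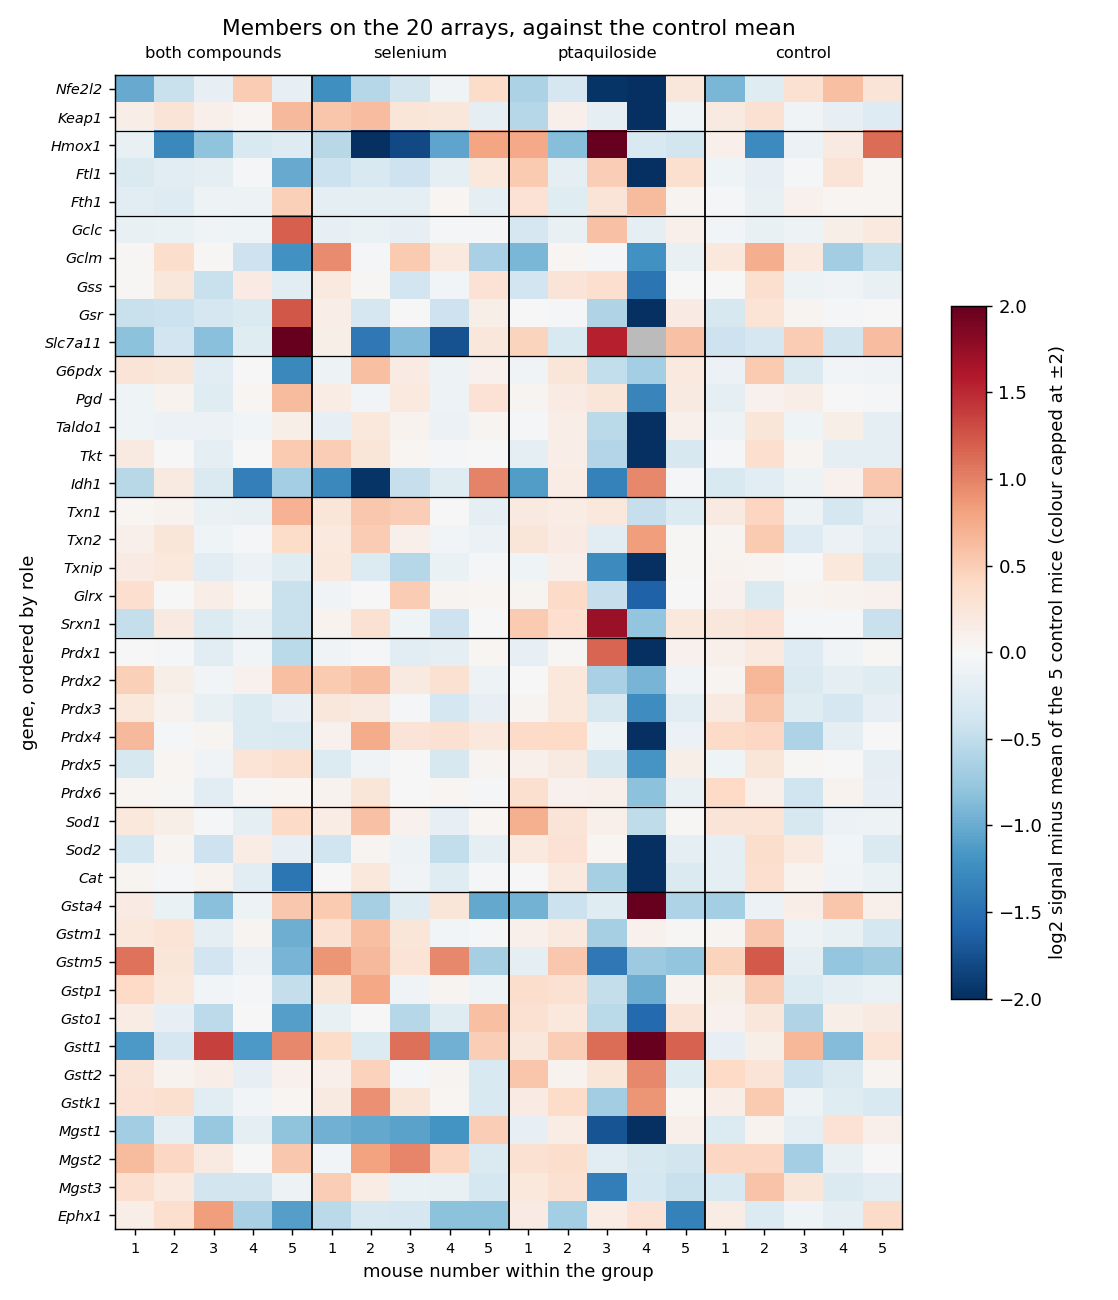
Levels of the 41 measured genes (rows, ordered by role, thin lines between roles) on 20 arrays (columns, by group and mouse number), as log2 signal minus the mean of the 5 control mice; colours are capped at 2 and grey marks a missing value. The columns of ptaquiloside mouse 4 and of mouse 5 given both compounds differ from their groups in both directions, and ptaquiloside mouse 3 is high for Hmox1, Srxn1, Slc7a11 and Prdx1.

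None of the 41 members passed the test in any comparison. At an adjusted p under 0.05 (limma, Benjamini-Hochberg over 17481 genes), 0 members and 0% of all genes were called in each of the 8 comparisons and in the F test over the 4 groups, with all 20 arrays and with the 19. At an unadjusted p under 0.05 on all arrays, 4 members stood out for both compounds against ptaquiloside (2.43% of all genes did) and 3 for selenium-fed against not fed (2.11% of all genes). There were 2 for ptaquiloside against control (1.5% of all genes) and 0 in the other comparisons. The shares of all genes there were 1.05% with selenium alone and 0.229% with both compounds, each set against control. They were 0.583% for both compounds against selenium, 0.589% for ptaquiloside-fed against not fed, 1.2% for the interaction and 0.961% for the F test. The counts of 4 and of 2 members each include Gstt1, which adds no support. It counted as measured only through the ptaquiloside group, with 4 of its 7 arrays. On the 19 arrays the member counts were 7 (17.1% of members) for selenium-fed against not fed, against 6.54% of all genes, and 5 (12.2%) for both compounds against ptaquiloside, against 4.52%. For the other comparisons they were 0 to 2, against 1.36% to 5.42% of all genes (3.67% for both compounds against selenium, with 0 members). Values below are accordingly described as higher or lower, with no change called.

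The widest set of differences lay between the 10 selenium-fed mice and the 9 not fed selenium, the dim array left out. In selenium-fed mice Hmox1, Ftl1 and Srxn1 were lower, and so was Sod2. Keap1, Prdx2 and Tkt were higher. These 7 genes are those with an unadjusted p under 0.05, and their adjusted p lay between 0.725 and 0.758 in limma on 19 arrays.

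Hmox1 lay at 2.59, 1.46, 1.94, 2.44 and 2.48 in mice 1 to 5 given both compounds, and at 2.18, 0.60, 0.93, 1.68 and 3.53 with selenium alone. It lay at 3.49, 1.88, 5.14, 2.43 and 2.37 in mice given ptaquiloside alone, and at 2.84, 1.47, 2.62, 2.92 and 3.86 in controls. The groups overlapped, but on each slide the mean of the selenium-fed mice was below that of the others. The selenium-fed minus not-fed difference was -1.01 (SE 0.37, fold 0.496, adjusted p = 0.734 in limma) on 19 arrays, and -0.92 (SE 0.42, adjusted p = 0.959) on all 20. Within slides it ran from -2.45 to -0.11. Without ptaquiloside mouse 3 as well, which had the value of 5.14, it was -0.63 (adjusted p = 0.848).

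Ftl1, the ferritin light chain, lay at 5.56, 5.63, 5.68, 5.84 and 4.84 in mice given both compounds, and at 5.42, 5.55, 5.43, 5.66 and 6.07 with selenium alone. It lay at 6.38, 5.67, 6.35, 3.21 and 6.17 with ptaquiloside alone, and at 5.77, 5.69, 5.81, 6.10 and 5.89 in controls. The value of 3.21 belongs to the dim array. The difference was -0.46 (SE 0.14, adjusted p = 0.725) on 19 arrays, and -0.14 (SE 0.31, adjusted p = 0.959) on all 20, so the dim array moves it by more than 1.5 times. Without the dim array selenium-fed mice ranged from 4.84 to 6.07, around a median of 5.60, and mice not fed selenium from 5.67 to 6.38, around a median of 5.89.

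Srxn1 lay at 2.38, 3.04, 2.58, 2.71 and 2.42 in mice given both compounds, and at 2.93, 3.16, 2.77, 2.45 and 2.85 with selenium alone. It lay at 3.38, 3.19, 4.59, 2.08 and 3.06 with ptaquiloside alone, and at 3.08, 3.15, 2.83, 2.81 and 2.42 in controls. Selenium alone and control thus spanned nearly the same range, and the high values were those of ptaquiloside alone. The selenium-fed minus not-fed difference was -0.46 (SE 0.17, adjusted p = 0.740) on 19 arrays, and -0.33 (SE 0.23, adjusted p = 0.959) on all 20. Without ptaquiloside mice 3 and 4 it was -0.28 (adjusted p = 0.848). All 3 probes of Srxn1 gave a lower value, from -0.46 to -0.13.

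Keap1, the inhibitor of NRF2, lay at 2.27, 2.38, 2.23, 2.17 and 2.77 in mice given both compounds, and at 2.69, 2.74, 2.37, 2.35 and 1.94 with selenium alone. It lay at 1.56, 2.22, 1.95, 0.05 and 2.04 with ptaquiloside alone, and at 2.30, 2.44, 2.05, 1.97 and 1.88 in controls. It was higher in selenium-fed mice on 4 of 4 slides without slide 4, by 0.37 (SE 0.13, fold 1.30, adjusted p = 0.725) on 19 arrays. On all 20 the difference was 0.55 (SE 0.22, adjusted p = 0.959).

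Prdx2, an abundant peroxiredoxin of red blood cells, lay at 4.33, 3.97, 3.80, 3.95 and 4.46 in mice given both compounds, and at 4.38, 4.47, 4.04, 4.16 and 3.76 with selenium alone. It lay at 3.85, 4.07, 3.22, 2.93 and 3.79 with ptaquiloside alone, and at 3.91, 4.52, 3.56, 3.69 and 3.61 in controls. The difference was 0.35 (SE 0.13, adjusted p = 0.734) on 19 arrays, with all 3 probes positive, from 0.25 to 0.35. On 3 of 4 slides without slide 4 the selenium-fed mean was the higher one. Tkt, transketolase, differed by 0.26 (SE 0.11, adjusted p = 0.758), but its other kept probe pointed the other way, at -0.19. Sod2 differed by -0.23 (SE 0.10, adjusted p = 0.758) on 19 arrays, and by 0.00 on all 20. Mgst2 was higher by 0.37 (SE 0.18, adjusted p = 0.778) on 19 arrays.

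**Figure D2:**
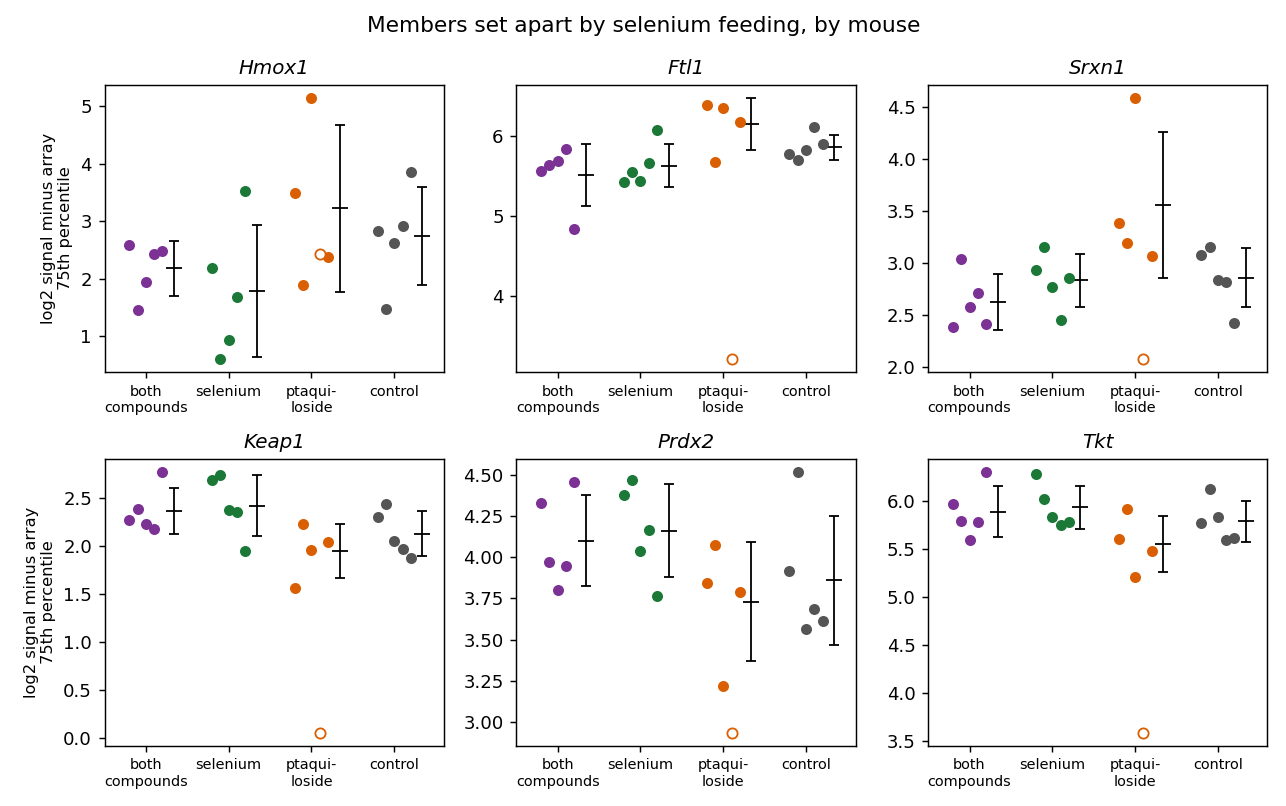
Log2 signal minus the array's 75th percentile for 6 genes; each point is 1 mouse, placed from left to right by mouse number within the group, and the bar beside each group is the mean with its SD. The open circle is the dim array of ptaquiloside mouse 4, left out of mean and SD. Hmox1, Ftl1 and Srxn1 reach their highest values in mice given ptaquiloside alone, and without the dim array the only groups shown that do not overlap are both compounds and ptaquiloside alone, for Srxn1.

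Markers of other cells differed with selenium as well. On the 19 arrays 10 of 13 macrophage and monocyte markers were lower in selenium-fed mice (median -0.12), 8 of 8 B cell markers were lower (median -0.31), 9 of 9 neutrophil markers were higher (median 0.68) and 7 of 9 erythroid markers were higher (median 0.43). The summed level of the macrophage list ran from 8.84 to 9.16 in mice given both compounds and from 8.47 to 9.08 with selenium alone, against 8.20 to 9.47 with ptaquiloside alone, the dim array left out, and 8.87 to 9.34 in controls. Macrophages of the spleen express Hmox1 and ferritin strongly, and the part of these markers in the differences above was not tested. Marker genes were tested in the same way and 0 passed, as 0 genes did.

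In mice given selenium alone against control mice, haem and iron genes were on the low side. These arrays are part of the selenium-fed against not-fed comparison above, so this is not a second observation. Hmox1 was lower on 5 of 5 slides, with a mean difference of -0.96 (SE 0.60, adjusted p = 1 on all arrays and 0.923 on 19 in limma). Across the 41 members 22 were higher and 19 lower, with a median of 0.01, equal to that of all genes (0.01), of which 52.7% were higher. On all 5 slides 4 members were higher (9.76%), Keap1, Gstm1, Gstp1 and Gstk1, against 5.4% of all genes. On all 5 slides 3 members were lower (7.32%), Hmox1, Fth1 and Ephx1, against 4.27% of all genes.

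Ephx1, the microsomal epoxide hydrolase, lay at -0.69, -0.47, -0.48, -0.96 and -0.97 with selenium alone, and at 0.00, -0.42, -0.23, -0.33 and 0.25 in controls. It was the 1 member whose values did not overlap between these groups, where 0.276% of all genes were lower without overlap. The difference was -0.57 (SE 0.35, adjusted p = 1) on all arrays. Mgst1, a microsomal transferase, was at 1.28, 1.21, 1.17, 1.04 and 2.73 with selenium alone, and at 1.97, 2.30, 2.06, 2.53 and 2.33 in controls. Selenium mouse 5 was the exception to the lower level, and the difference was -0.75 (SE 0.72, adjusted p = 1) on all arrays and -0.75 (SE 0.31, adjusted p = 0.902) on 19.

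The remaining members with small p in this comparison had adjusted p of 1 on all arrays. Slc7a11 differed by -0.74 (SE 0.55), with all 4 probes negative. Mgst2 differed by 0.37 (SE 0.27), Prdx2 by 0.30 (SE 0.25) and Prdx4 by 0.32 (SE 0.42), where the second probe of Prdx4 gave -0.29. Of the NRF2 axis, Nfe2l2 differed by -0.37 (SE 0.43), Keap1 by 0.29 (SE 0.32), Gclc by -0.10 (SE 0.24), Gclm by 0.20 (SE 0.36) and Srxn1 by -0.03 (SE 0.32). In the same comparison 10 of 13 macrophage markers were lower (median -0.37), 8 of 8 B cell markers and 8 of 8 T cell markers were lower (medians -1.06 and -0.42), and 10 of 10 NK cell markers were higher (median 0.24). Higher too were 9 of 9 neutrophil markers (median 0.58) and 5 of 5 platelet markers (median 0.24). Their part in these values was not tested.

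With ptaquiloside alone against control, the dim array set the sign of the list. On all arrays 11 members were higher and 30 lower, with a median of -0.27, against 49.7% of all genes higher and a median of 0.00. Without ptaquiloside mouse 4 there were 21 higher and 20 lower, with a median of 0.02, against 49.8% of all genes higher. The members with the smallest p on all arrays were low or high on that array. Txnip was at 4.17, 4.35, 2.98, -2.82 and 4.28 with ptaquiloside, and at 4.32, 4.31, 4.25, 4.46 and 3.93 in controls. Its difference was -1.66 (SE 0.91, adjusted p = 0.801) on all arrays and -0.30 (SE 0.21, adjusted p = 0.999) on 19. Mgst1 differed by -1.37 (SE 0.72) on all arrays and by -0.39 (SE 0.34) on 19, and Gstt1 by 1.20 (SE 0.56) and 0.50 (SE 0.27). Gstt1 was well above background on only 7 of 20 arrays, 4 with ptaquiloside alone and 1 in each other group. Its values thus sit near the limit of measurement. It passed the filter of 5 arrays only through the group where it was high, so its differences from that group carry no support.

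Of the regulators, Nfe2l2 lay at 3.94, 4.23, 2.60, 2.53 and 4.80 with ptaquiloside, and at 3.65, 4.33, 4.87, 5.17 and 4.83 in controls. Mice 3 and 4 held the low values. The difference was -0.95 (SE 0.43, adjusted p = 0.801) on all arrays and -0.54 (SE 0.32, adjusted p = 0.999) on 19, and 1 of its 3 probes pointed the other way on 19 arrays, at 0.27. Keap1 differed by -0.56 (SE 0.32) on all arrays and by -0.22 (SE 0.19) on 19. Tkt was lower on 5 of 5 slides, with a difference of -0.63 (SE 0.32) on all arrays and -0.28 (SE 0.16) on 19. The second probe of Tkt gave 0.067 on 19 arrays. Ephx1 differed by -0.28 (SE 0.35) and -0.51 (SE 0.30).

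Srxn1 was the 1 member with an unadjusted p under 0.05 on the 19 arrays in this comparison, where 2.37% of all genes had one. It was higher with ptaquiloside on 4 of 4 slides, and its difference was 0.67 (SE 0.25, fold 1.59, adjusted p = 0.999), against 0.40 (SE 0.32, adjusted p = 0.801) on all arrays. Without ptaquiloside mouse 3 it was 0.30 when the dim array was left out too (adjusted p = 1) and 0.069 when the dim array was kept. Hmox1 differed by 0.51 (SE 0.54) on 19 arrays and by 0.32 (SE 0.60) on all, and without mouse 3 the sign turned, to -0.20. Gclc differed by 0.01 (SE 0.24) on all arrays and Gclm by -0.45 (SE 0.36). Markers of other cells were mostly lower on 19 arrays, with 9 of 9 neutrophil (median -0.36), 8 of 8 B cell (median -0.74), 8 of 9 erythroid (median -0.42), 7 of 8 T cell (median -0.25) and 9 of 13 macrophage markers (median -0.13). Of the NK cell markers 9 of 10 were higher (median 0.15), and the part of these markers was not tested.

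Ptaquiloside mouse 3 lay above the other mice of its group in some NRF2 targets, Hmox1 most of all. Its Hmox1, at 5.14, was the highest of the 19 arrays and stood 2.56 above the mean of ptaquiloside mice 1, 2 and 5, which was 2.58. That gap was at the 99.91 percentile of the same gap over all genes. The gap was 1.38 for Srxn1 (96.07 percentile), 1.32 for Slc7a11 (95.53 percentile) and 1.19 for Prdx1 (94.14 percentile), the peroxiredoxin whose promoter is shown above. All 3 probes of Srxn1 had their highest value of the 19 arrays in this mouse, at 4.59, 0.67 and 0.55. Prdx1 lay at 3.27, 3.45, 4.60, -0.31 and 3.52 in ptaquiloside mice, with the lowest value on the dim array. A high Hmox1 or Slc7a11 in 1 mouse was not particular to ptaquiloside alone. Selenium mouse 5 had gaps of 2.18 for Hmox1 (99.83 percentile) and 1.20 for Slc7a11 (98.44 percentile). Its gaps were 0.03 for Srxn1 (58.47 percentile) and 0.16 for Prdx1 (69.99 percentile). Mouse 5 given both compounds had a gap of 2.80 for Slc7a11 (97.7 percentile).

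Other members were low in ptaquiloside mouse 3. It held the lowest of the 19 values for 12 of 41 members (29.3%), against 8.49% of all genes, among them Nfe2l2, Gsr, Txnip, Prdx2, Gstp1 and Mgst1. The gap to the other 3 mice was -1.72 for Nfe2l2, at the 0.574 percentile of all genes, and -1.76 for Mgst1, at the 0.477 percentile. These values are of the brightest probe. Another probe of Nfe2l2 was low in this mouse as well (2.06), but its remaining kept probe was the highest of the 19 arrays there (3.63). The transferases Gstm5, Gstk1 and Mgst3 were lowest there too, and so was the brightest probe of the NADPH gene Tkt. The second probe of Tkt was instead the highest of the 19 arrays in this mouse (-1.78). Its summed macrophage marker level, 8.20, was the lowest of all arrays, while its Hmox1 was the highest. The mouse is 1 animal on 1 array, with no replicate.

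**Figure D3:**
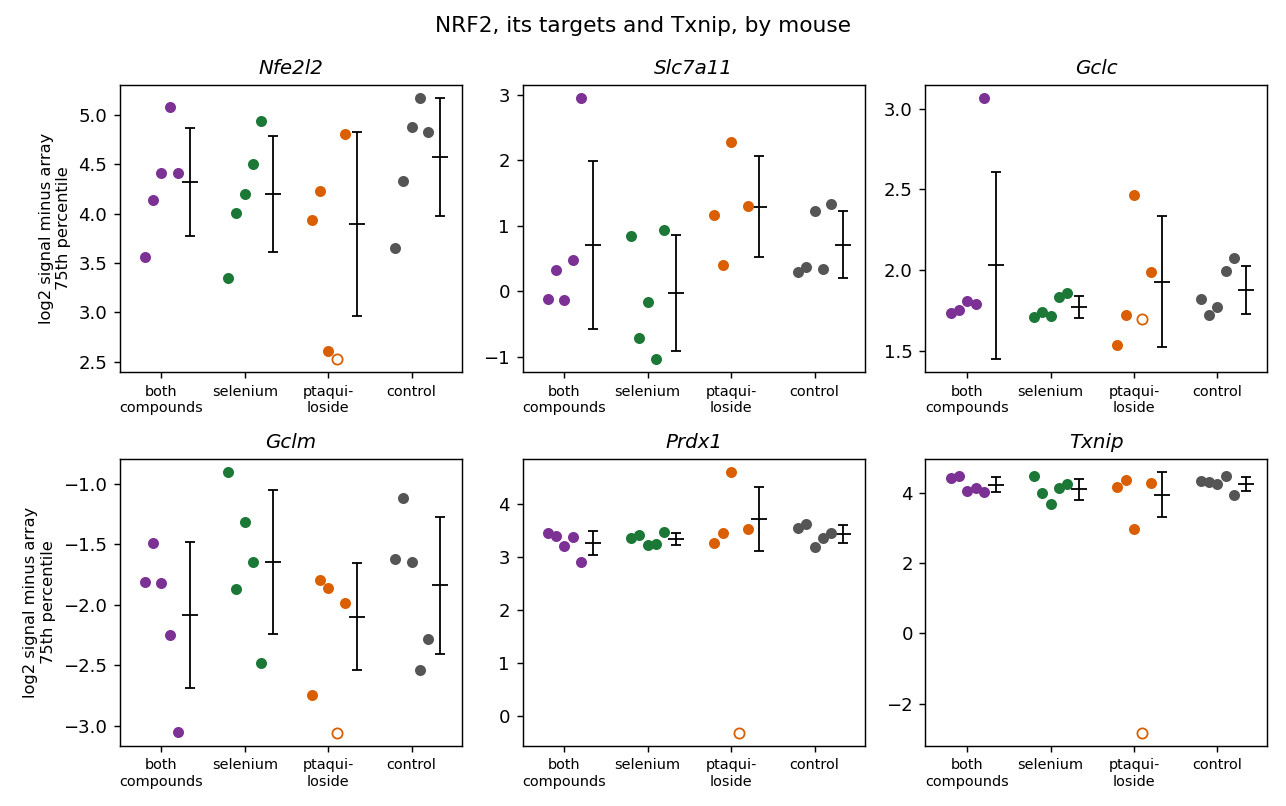
Log2 signal minus the array's 75th percentile for Nfe2l2, 4 NRF2 targets and Txnip, drawn as in the plot of the genes set apart by selenium (points are mice by number, bars are mean and SD without the dim array, the open circle is the dim array). Points show the brightest probe of each gene. Ptaquiloside mouse 3, the third point of its group, is high for Prdx1 (4.60) and Slc7a11 (2.28) and low for Nfe2l2 (2.60). Mouse 5 given both compounds is high for Gclc (3.07) and Slc7a11 (2.95). Not all probes of Nfe2l2 and Slc7a11 share these extremes.

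Mice given both compounds were set against each single compound and against control. Against ptaquiloside alone, 5 members had an unadjusted p under 0.05 on the 19 arrays, Srxn1 and Ftl1 on the low side and Keap1, Tkt and Prdx2 on the high side. Srxn1 differed by -0.90 (SE 0.25, fold 0.536, adjusted p = 0.926) on 19 arrays and by -0.63 (SE 0.32, adjusted p = 0.821) on all 20. Without the dim array its values did not overlap: the highest with both compounds was 3.04 and the lowest with ptaquiloside alone was 3.06. It was the 1 member lower without overlap, where 0.449% of all genes were. Leaving out ptaquiloside mouse 3 alone gave a difference of -0.30, and leaving out mice 3 and 4 gave -0.53.

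Ftl1 differed by -0.68 (SE 0.21, adjusted p = 0.926) on 19 arrays, but by -0.05 (SE 0.44, adjusted p = 0.972) on all 20. Keap1 was higher with both compounds than with ptaquiloside alone on 5 of 5 slides, by 0.46 (SE 0.19, adjusted p = 0.926) on 19 arrays and 0.80 (SE 0.32, adjusted p = 0.821) on all 20. Prdx2 differed by 0.40 (SE 0.18) and 0.53 (SE 0.25) in the same fits. For Tkt the values were 0.38 (SE 0.16) and 0.73 (SE 0.32), with its second probe at -0.27 on 19 arrays. Gstt1 differed by -0.56 (SE 0.27) and -1.26 (SE 0.56). It was well above background on 1 array with both compounds and on 4 with ptaquiloside alone, through which it passed the filter, so this difference carries no support. In this comparison 9 of 9 neutrophil markers were higher on 19 arrays (median 0.78), 8 of 9 erythroid markers were higher (median 0.62) and 8 of 8 B cell markers were higher (median 0.58). Macrophage markers split into 8 higher and 5 lower (median 0.01).

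Against control, mice given both compounds had Nfe2l2 and some NRF2 targets on the low side of every slide, by small amounts. Mean differences of other NRF2 targets went both ways. Gclc differed by 0.15, Tkt by 0.10 and Pgd by 0.08, while Gclm, G6pdx and Prdx1 differed by -0.25, -0.21 and -0.17. Taldo1, Fth1 and Slc7a11 lay between -0.05 and -0.01. On all 5 slides 5 members were lower (12.2%), against 2.14% of all genes, and 0 were higher, against 1.52%. These 5 were Nfe2l2, Hmox1, Ftl1, Srxn1 and Mgst1. Within slides Nfe2l2 differed by -0.46 to -0.09, Hmox1 by -1.39 to -0.01, Ftl1 by -1.05 to -0.06, Srxn1 by -0.70 to -0.0021 and Mgst1 by -0.90 to -0.26. On the array scale these are means of -0.25 (SE 0.43), -0.56 (SE 0.60), -0.34 (SE 0.44), -0.23 (SE 0.32) and -0.53 (SE 0.72), each with an adjusted p of 1 in limma. The slide count of Srxn1 holds for its brightest probe, as its other 2 kept probes were lower on 2 and 1 of 5 slides. The second probe of Mgst1 was lower on 5 slides, and the other 2 of Nfe2l2 on 5 and 4. The counts over slides carry no test, and all comparisons with control share the same 5 control mice.

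For the other members named in this comparison adjusted p was 1 as well. Keap1 differed by 0.24 (SE 0.32), Gclc by 0.15 (SE 0.24) and Gclm by -0.25 (SE 0.36). Without mouse 5 given both compounds, the second dimmest array, Gclc gave -0.11. Mgst2 differed by 0.35 (SE 0.27), Prdx2 by 0.24 (SE 0.25), Gsto1 by -0.33 (SE 0.34), Cat by -0.32 (SE 0.51) and Idh1 by -0.54 (SE 0.49). Idh1 was above background on 8 of 20 arrays, 4 of them controls. It passed the filter only through control, where it was high, so its difference carries no support. Over the list 15 members were higher and 26 lower, with a median of -0.05, against 54.5% of all genes higher and a median of 0.02. The 26 include Idh1 and Gsta4, which passed the filter only through control. Here 9 of 13 macrophage markers were lower (median -0.15) and 7 of 9 neutrophil markers were higher (median 0.49), and their part was not tested.

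Against selenium alone, 14 members were higher and 27 lower with both compounds, with a median of -0.06, against 50.1% of all genes higher and a median of 0.00. Gstm1, a cytosolic transferase, lay at 4.68, 4.74, 4.27, 4.52 and 3.50 with both compounds, and at 4.77, 5.06, 4.71, 4.42 and 4.45 with selenium alone. The groups overlapped, and the difference was -0.34 (SE 0.25, adjusted p = 1). Slc7a11 lay at -0.11, 0.32, -0.12, 0.48 and 2.95 with both compounds, and at 0.84, -0.71, -0.15, -1.03 and 0.93 with selenium alone. Its difference of 0.73 (SE 0.55) came down to 0.17 without mouse 5 given both compounds, and 1 of its 4 probes gave -0.04. Ephx1 differed by 0.48 (SE 0.35), Gclm by -0.44 (SE 0.36), G6pdx by -0.33 (SE 0.28) and Prdx4 by -0.30 (SE 0.42). Without mouse 5 given both compounds G6pdx gave -0.06. In this comparison 8 of 8 B cell markers (median 1.00), 8 of 8 T cell markers (median 0.51) and 10 of 13 macrophage markers (median 0.08) were higher. Lower were 10 of 10 NK cell markers (median -0.14), 8 of 9 neutrophil markers (median -0.27) and 5 of 5 platelet markers (median -0.50), and their part was not tested.

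Over both pairs of groups, ptaquiloside-fed minus not fed, Gclm was lower on 5 of 5 slides. Gclm lay at -1.81, -1.49, -1.82, -2.25 and -3.05 with both compounds and at -2.75, -1.80, -1.86, -3.06 and -1.99 with ptaquiloside alone. It lay at -0.90, -1.87, -1.31, -1.65 and -2.48 with selenium alone, and at -1.62, -1.12, -1.64, -2.54 and -2.28 in controls. The difference was -0.45 (SE 0.26, adjusted p = 0.928) on all arrays and -0.39 (SE 0.21, adjusted p = 1) on 19. Gstm5 differed by -0.48 (SE 0.32) on all arrays and by -0.47 (SE 0.22) on 19, where it was the 1 member with an unadjusted p under 0.05 (2% of all genes had one). Slc7a11, which had no value on the dim array, differed by 0.65 (SE 0.40) on all arrays and by 0.58 on 19 in its brightest probe. On 19 arrays all 4 probes were positive, from 0.022 to 0.58, while the mean of the 4 on all arrays, where the other probes have a value on the dim array, was -0.016. Cat differed by -0.58 (SE 0.36) on all arrays and by -0.25 (SE 0.16) on 19, Tkt by -0.34 (SE 0.23) and -0.16 (SE 0.11), and Gstm1 by -0.20 (SE 0.18) and -0.23 (SE 0.13).

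**Figure D4:**
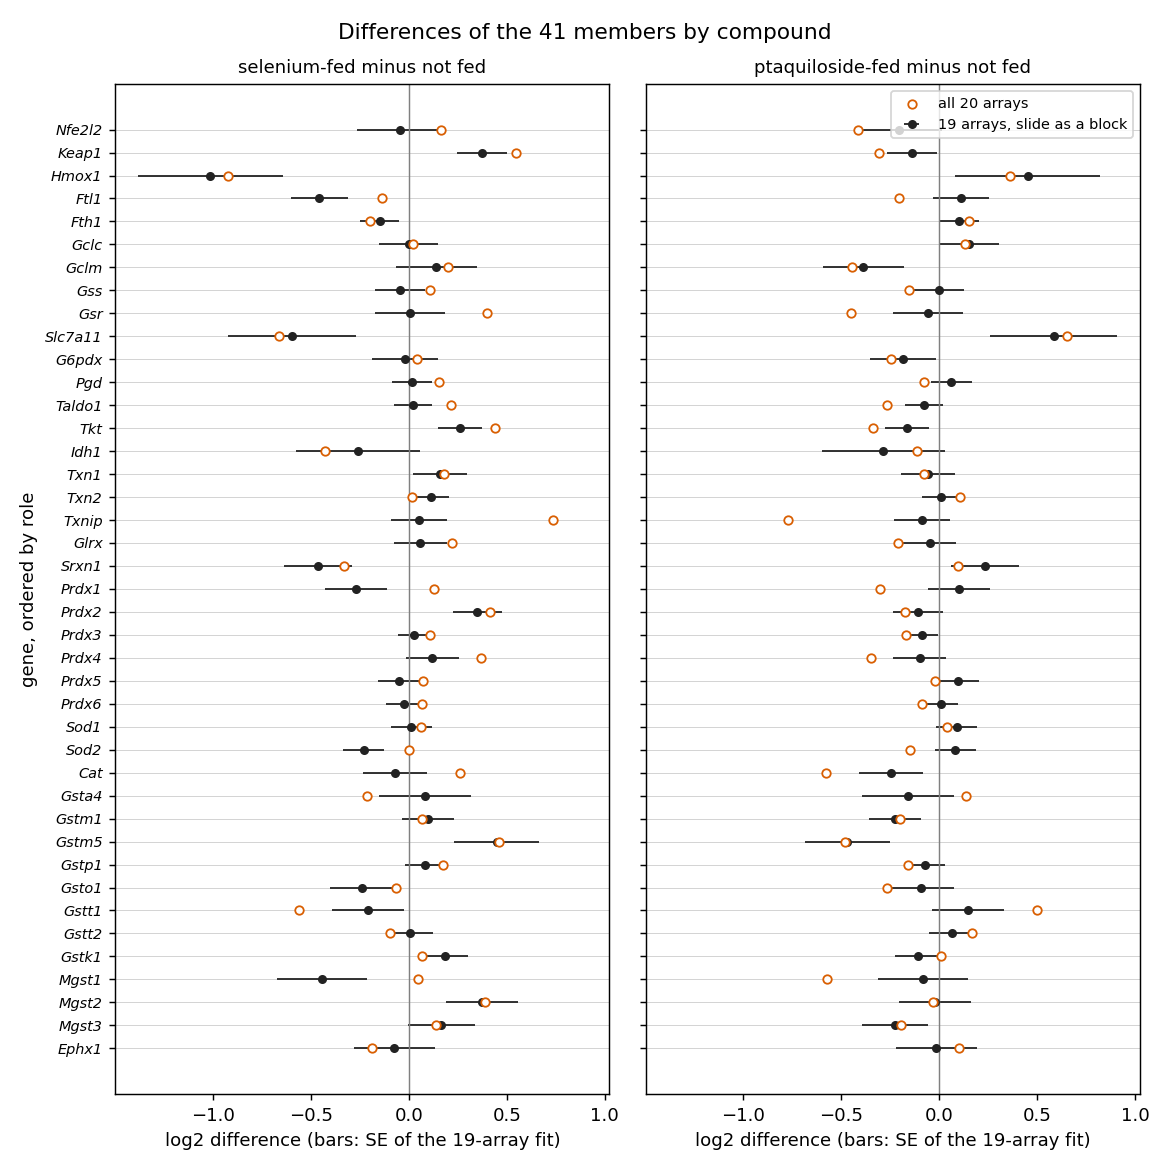
Log2 differences of the 41 genes, selenium-fed minus not fed (left) and ptaquiloside-fed minus not fed (right); filled points with SE bars are from 19 arrays with the slide as a block, open points from all 20 arrays. Hmox1 at -1.01 is the lowest point on the left, and no gene in either panel passed the test.

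Whether the ptaquiloside difference itself depended on selenium was tested as an interaction, which 0 members passed. On the 19 arrays 2 members (4.88%) had an unadjusted p under 0.05, against 4.18% of all genes. Ephx1 had an interaction of 0.99 (SE 0.41, adjusted p = 0.971), as its ptaquiloside difference was 0.48 with selenium and -0.51 without. Srxn1 had -0.87 (SE 0.35, adjusted p = 0.971), negative on 4 of 4 slides. On all 20 arrays Ephx1 had 0.76 (SE 0.49) and Srxn1 -0.61 (SE 0.45). When 1 mouse was left out at a time, Srxn1 ran from -0.90 to -0.27 and Ephx1 from 0.50 to 1.02. Gstt1 had -0.70 (SE 0.37) on 19 arrays, Nfe2l2 0.66 (SE 0.44), Mgst1 0.62 (SE 0.46) and Txnip 0.42 (SE 0.29). The value of Gstt1 carries no support, as this gene passed the filter only through the ptaquiloside group. Ftl1 and Prdx4 had -0.45 (SE 0.29) and -0.40 (SE 0.27) on 19 arrays, against 0.18 (SE 0.62) and 0.10 (SE 0.60) with the dim array. Over all alternatives run, Nfe2l2 ran from 0.14 to 1.37, Mgst1 from 0.25 to 2.27 and Txnip from 0.16 to 2.48. Of the 3 probes of Nfe2l2, 1 gave -0.32 on 19 arrays.

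For these genes the slide took a larger share of the variance than the group. On the 16 arrays of the 4 slides without slide 4, the slide took a median of 36.1% of a member's variance, the group 13.4% and the rest 46.4%, against 36.7%, 11.6% and 47.7% over all 17342 genes. The members were thus like other genes in this respect. The highest group shares among the 41 members were those of Ftl1 (50.1%), Srxn1 (47.4%), Keap1 (39.0%) and Tkt (34.1%). They were picked by value, and how many of all genes reach such shares was not counted. Some share falls to the group even without a difference between groups. Hmox1 had the widest spread of the members, with an SD of 1.16 over these arrays.

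Among other genes of the same pathways, 63 of 70 listed genes were measured, and 0 passed in either direction in any comparison. They include the NADPH quinone reductase Nqo1, a classical NRF2 target, which differed by 1.06 with selenium alone against control (adjusted p = 1 on all arrays and 0.768 on 19). Nucleoredoxin, Nxn, differed by 0.50 in the same comparison, and Bach1, the repressor that competes with NRF2 at Hmox1, by -0.58. Nqo1 was thus on the high side where Hmox1 was on the low side. With both compounds against control Nqo1 differed by 0.50. With ptaquiloside alone against control, the stress-induced growth inhibitor Osgin1 differed by 0.78 and the mitochondrial isocitrate dehydrogenase Idh2 by -0.85 on all arrays (adjusted p = 0.801). With both compounds against ptaquiloside alone, Osgin1 differed by -0.63 and Idh2 by 0.92 on all arrays (adjusted p = 0.821). Txnrd1, the cytosolic thioredoxin reductase and a selenoprotein, differed by -0.41 there on 19 arrays (adjusted p = 0.926).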

How the data were processed

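The deposited scanner files hold spot intensity, per the file headers background-subtracted and detrended within each array and not scaled between arrays, made with Agilent Feature Extraction 9.5.3.1 per the submitters' processing notes. Columns of unit other, per the file headers, are flags for controls, outliers and signal above background. A table of log2 values was deposited by the authors, with a decimal comma in the control columns, which were therefore read as other. In 18 of its 20 columns the values were the log2 processed signal of 1 array plus a constant of 19.93, with no scaling between arrays. Column medians ran from 22.84 to 23.70. Per its file header the authors put the mean of the group's other mice in place of 1 control and 1 ptaquiloside array that had many outliers. The 2 columns equal to such a mean were dropped, and the table was used as an alternative. The control array that the authors replaced was kept in the fits from the scanner files, save where each array was left out in turn.

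From the scanner files, controls and outlier spots were left out, each array's processed signal was divided by its own 75th percentile, and log2 was taken. A probe was kept when well above background on 5 or more of the 20 arrays, and the brightest probe stood for a gene. Of 41174 probes 25097 were named by accession through RefSeq's GRCm38.p6 gene table, and 16077 kept the file's name. All 42 members were found, with 71 probes, of which 67 were kept, and 17 members had over 1 kept probe. Of 36 named values with several probes, 11 had a probe of the other sign.

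One mean per group was fitted with limma 3.58.1 (R 4.3.3, data.table version 1.17.8), two-sided, with Benjamini-Hochberg adjustment over 17481 genes for each comparison. The mouse number is the slide, per the slide barcodes in the scanner file names, and all arrays share 1 scan day, per the file headers. Deviations of same-numbered mice from their group means correlated at -0.344 to 0.711 (median 0.445, 24 of 30 pairs over 0.1), against a median of -0.0981 for other pairs. Single differences are given for the 5 members with the smallest p on all 20 arrays, the 5 on 19 arrays, and, against control, Nfe2l2, Keap1, Hmox1, Gclc, Gclm and Srxn1. For the other pathway genes they come from the 3 smallest p. The members and lists were chosen with earlier results of these data known, and Sod2, the members counted over slides and those of single mice were named after their values were seen.

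On simulated data for selenium-fed against not fed (17342 genes), shifts of 1 and 2 on the log2 scale were called in 51% and 79% of 100 genes each with the spread of all arrays. With the spread of the 19 arrays without slide differences they were called in 73% and 96%, with 7 false calls in both settings. The number of arrays limits the precision. Alternatives were other background corrections, scalings, filters and probe rules, array weights, the deposited table, and leaving out each array. Leaving out ptaquiloside mouse 4 with mouse 3, or with mouse 5 given both compounds, was added after seeing the data.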

Additional observations from a re-analysis of the deposited data

Results flagged for a closer look

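In 163 group values with 5 mice each, 1 mouse lay far from the other 4 in 26, by Dixon's test at its critical value of 0.71. Chance flags about 1 in 20. Of the 26, 9 were on the dim array of ptaquiloside mouse 4 and 8 on the array of mouse 5 given both compounds, the second dimmest.

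On the array of ptaquiloside mouse 4, Ftl1 (3.21), Gsr (-1.06), Pgd (1.41), Txnip (-2.82), Prdx1 (-0.31), Prdx4 (-0.93), Sod2 (3.72) and Cat (-3.19) were the lowest of the group. Gsta4 (-2.50) was the highest of the group, although it was above background on 0 of 5 ptaquiloside arrays.

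On the array of mouse 5 given both compounds, Fth1 (9.67), Gclc (3.07), Gsr (4.46), Slc7a11 (2.95), Taldo1 (6.94) and Txn1 (4.66) were the highest of the group, and Ftl1 (4.84) and Cat (-1.06) the lowest. For Slc7a11 another kept probe was also highest of the group in this mouse (-1.33), but the remaining ones were not (-1.17 and -1.57). The 2 ferritin chains thus lay on opposite sides in this mouse. It held the highest of 19 values for 9 of 41 members (22%), against 28.6% of all genes.

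In other mice given both compounds, Prdx6 was low in mouse 3 (4.95). With selenium alone, Fth1 was high in mouse 4 (9.23), Glrx in mouse 3 (1.73) and Mgst1 in mouse 5 (2.73). With ptaquiloside alone, Gstm1 was low in mouse 3 (3.80). In controls, Gss (0.82) and G6pdx (3.29) were high in mouse 2, Glrx was low in mouse 2 (0.93) and Gsto1 was low in mouse 3 (3.04).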

How the results depend on the processing

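All member counts stayed at 0 under every alternative run, the slide as a replicate block included, and so did the calls of the other pathway genes. Over all genes, 1 was called without mouse 4 given both compounds and 2 without ptaquiloside mice 3 and 4. The authors' deposited table is not scaled between arrays and was used without 2 of its columns. It moved the members' median to -0.11 for selenium against control and to -0.22 for both compounds against control. Median centring moved the members' median to -0.16 for both compounds against selenium, where it moved the median of all genes to -0.11. For ptaquiloside against control it moved the median of all genes to -0.24.

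Single differences that changed sign are given next, and the cause was not tested. Hmox1, ptaquiloside against control, ran from -0.20 (without mouse 3) to 0.62 when 1 mouse was left out, gave -0.17 with array weights and -0.26 without ptaquiloside mice 3 and 4. Gclc in that comparison ran from -0.14 to 0.092, and gave -0.10 with normexp, -0.23 with median centring, -0.0066 with array weights, -0.013 in the deposited table and -0.18 without mice 3 and 4. Gclc for both compounds against control ran from -0.11 (without mouse 5 given both) to 0.23, with -0.13 by array weights, -0.0305 in the deposited table and -0.079 without that mouse and ptaquiloside mouse 4. Gclm gave 0.055 (ptaquiloside) and 0.21 (both compounds) against control with array weights, and -0.0026 for selenium against control with normexp. Srxn1, selenium against control, ran from -0.14 to 0.069, with 0.033 by median centring, 0.064 by the mean of its probes and 0.10 by array weights. Slc7a11, ptaquiloside-fed against not fed, gave -0.016 by the mean of its probes.

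Ftl1, both compounds against ptaquiloside, ran from -0.63 (without ptaquiloside mouse 4) to 0.16, with 0.076 by normexp and 0.14 by median centring. Its interaction ran from -0.40 (without ptaquiloside mouse 4) to 0.39. It was -0.45 with the replicate block without mouse 4, -0.23 also without mouse 5 given both compounds, -0.39 also without ptaquiloside mouse 3, -0.10 with array weights and -0.37 in the deposited table. The interaction of Prdx4 ran from -0.44 (without ptaquiloside mouse 4) to 0.30. In the same settings it was -0.40, -0.35, -0.39, -0.41 and -0.53, with -0.085 by normexp. No other difference followed through these settings changed sign. The differences of Sod2 and of the other pathway genes were not followed through them. Sod2, selenium-fed against not fed, was -0.23 with the replicate block without ptaquiloside mouse 4 and 3e-04 on all arrays. The methods' t-test on unscaled signals, over 43379 spots with Benjamini-Hochberg adjustment, called 0 of 98 member spots in each of 3 comparisons with control.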
